A study of Mus musculus with 58 samples.

Results

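The transcripts of 7 genes that act on clock proteins after they are made were followed in the retina through the day, in non-diabetic and diabetic mice. They encode the kinases Csnk1d, Csnk1e, Csnk2a1 and Gsk3b and the F-box proteins Fbxl21, Btrc and Fbxw11, and were picked by symbol, which gave 7 of the 52459 genes in the deposited count table. Control retinas came from wild-type male littermates and diabetic retinas from heterozygous male Ins2Akita mice on a C57BL/6 background, in which a mutant insulin 2 misfolds and the pancreatic beta cells are lost. Both groups were 4 months old, lived in 12 h of light and 12 h of dark, and were perfused with saline before the retina was dissected, under dim red light at night. Each library is the ribosome-depleted total RNA of a single retina, taken at ZT1, ZT5, ZT9, ZT13, ZT17 or ZT21, where ZT is zeitgeber time, the hours since lights on. The control group had 5, 6, 5, 5, 5 and 4 libraries at these time points and the diabetic group had 5, 5, 5, 4, 4 and 5, which makes 30 and 28. The whole retina is a model of its mixed cell types, so fewer cells of a type and less RNA per cell cannot be told apart.

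The daily clock of a cell is a loop in which the PER and CRY proteins accumulate and repress their own transcription. Its period depends on how fast these proteins are phosphorylated and destroyed: casein kinase 1 delta and epsilon phosphorylate PER proteins, which lets the F-box proteins of Btrc and Fbxw11 (also called beta-TrCP1 and beta-TrCP2) bind them and mark them for the proteasome. Fbxl21 binds CRY proteins, while casein kinase 2 and GSK3 beta phosphorylate several clock proteins, and insulin signalling restrains GSK3 beta through the kinase AKT. These steps act on proteins, and only transcripts were measured here.

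All 7 are protein-coding genes. In GRCm38, as annotated by Gencode M21, the kinase genes lie at chr11:120961749-120991330 (Csnk1d, minus strand), chr15:79417856-79455566 (Csnk1e, minus strand), chr2:152226839-152281852 (Csnk2a1, plus strand) and chr16:38089001-38246084 (Gsk3b, plus strand). The F-box genes lie at chr13:56522472-56537898 (Fbxl21), chr19:45363734-45530013 (Btrc) and chr11:32642724-32746816 (Fbxw11), all on the plus strand. The counts cover the exons of the whole gene, so isoforms were not separated.

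Of the 7 genes, 5 had at least 1 promoter window in the RefSeq table (GRCm38.p6), and Csnk1d and Btrc had none. The stretches of Gsk3b, Fbxw11 and Fbxl21 are printed because these genes gave the lowest p-value for rhythm, the lowest p-value between genotypes and the widest scatter among libraries. Each line is the 250 bases before the annotated start, 5′ to 3′ on the gene's strand, and capitals mark matches to the GC-box GGGCGG or its reverse complement. The Gsk3b stretch is chr16:38088751-38089000 on the plus strand, that of Fbxw11 is chr11:32642305-32642554 on the plus strand, and that of Fbxl21 is chr13:56522222-56522471 on the plus strand.
Gsk3b: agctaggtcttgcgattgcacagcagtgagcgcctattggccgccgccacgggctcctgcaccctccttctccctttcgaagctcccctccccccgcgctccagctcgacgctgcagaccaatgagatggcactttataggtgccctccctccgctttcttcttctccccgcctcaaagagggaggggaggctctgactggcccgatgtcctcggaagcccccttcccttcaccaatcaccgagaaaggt
Fbxw11: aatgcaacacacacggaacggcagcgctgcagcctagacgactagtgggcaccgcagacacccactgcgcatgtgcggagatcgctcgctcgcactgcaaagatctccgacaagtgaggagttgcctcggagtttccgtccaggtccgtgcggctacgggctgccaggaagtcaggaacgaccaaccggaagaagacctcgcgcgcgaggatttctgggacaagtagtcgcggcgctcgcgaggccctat
Fbxl21: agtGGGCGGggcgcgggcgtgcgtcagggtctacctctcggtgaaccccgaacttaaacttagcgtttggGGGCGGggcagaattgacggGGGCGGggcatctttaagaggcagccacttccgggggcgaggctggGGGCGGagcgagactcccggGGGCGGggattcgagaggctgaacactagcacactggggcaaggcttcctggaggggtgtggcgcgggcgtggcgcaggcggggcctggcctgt

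The Fbxl21 stretch held 5 GC-boxes, whereas those of Gsk3b and Fbxw11 held 0. The Csnk2a1 window held 2 and the 4 overlapping windows of Csnk1e held 3, 5, 6 and 6, with overlapping matches counted. Across the promoters of 27025 genes, searched on both strands over 300 bases (250 before and 50 after the start), 38.202% held a GC-box. The 5 genes had no match to the clock-linked letters CACGTG (E-box, found in 8.093% of promoters), CACGTT (E-prime box, 5.439%), AGGTCA (the core of a ROR element, 18.131%), TGACGTCA (cAMP response element, 2.031%) or TTATGTAA (D-box, 1.106%). This says only that these letters are not in these windows. The windows were rich in G and C, at 63.0% for Gsk3b, 62.333% for Fbxw11 and 67.667% for Fbxl21, beside a median of 52.667% over all promoters.

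The libraries held 7773117 to 22147398 counted reads, and the rod genes Sag, Gnat1, Pde6b, Nrl and Cnga1 were read in all 58. Among markers of neighbouring tissue, the 5 lens genes summed to at most 46.1 CPM (read counts scaled to library size) in 55 libraries and to 1500 to 2190 in 3 control libraries (ZT1 replicate 6, ZT17 replicate 5 and ZT21 replicate 2), with Lim2 at 0 in every library. Red cell markers did not exceed 12.63 CPM. The 6 markers of the retinal pigment epithelium, the cell sheet behind the photoreceptors, were all detected and summed to 24.88 to 322.3 CPM, and varied with the time point as given with Gsk3b.

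All 7 genes were expressed in both genotypes, at levels that spanned the range from the abundant to the scarce. On a scale of CPM per kb of exon, Gsk3b stood highest with 41.09 ± 2.846 (SD, n = 58), above 96.45% of 18093 genes. Csnk1d followed with 21.98 ± 1.421 CPM per kb and Fbxw11 with 19.94 ± 1.341. A lower tier held Csnk2a1 (11.96 ± 0.8976), Btrc (10.58 ± 0.7041) and Csnk1e (9.91 ± 0.9344). Fbxl21 was the scarcest at 1.096 ± 0.1981 CPM per kb, above 24.62% of genes.

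The order was steady at its ends and loose in the middle. Gsk3b exceeded Csnk1d within each of the 58 libraries, Csnk1d exceeded Fbxw11 in 57, Fbxw11 exceeded Csnk2a1 in 58 and Csnk1e exceeded Fbxl21 in 58. Csnk2a1 exceeded Btrc in 49 of 58 libraries and Btrc exceeded Csnk1e in 40, so these neighbours lay within their spread. Per kb, Csnk1d was 2.254 ± 0.1766 times (SD, n = 30) the level of its close relative Csnk1e in control retinas and 2.207 ± 0.2123 times (n = 28) in diabetic retinas. Fbxw11 was 1.85 ± 0.1898 times the level of its paralog Btrc in control and 1.949 ± 0.2483 times in diabetic retinas.

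Most of these transcripts varied little from retina to retina. Over the 58 libraries the coefficient of variation of the normalized read count (counts divided by DESeq2 size factors) lay between 6.47171% for Csnk1d and 9.25447% for Csnk1e in 6 genes. In Fbxl21 it was 18.0846%, at raw counts of only 30 to 132 reads per library. The count of Csnk2a1 is uncertain, since 32.46% of its 7135 distinct 50-base words also occur in other genes, 2313 of them in the locus Gm10031, which itself had a mean count of 56.621. Csnk1e shared 2.579% of its words, mainly with the antisense gene Gm16059 (mean count 0.397), and the other 5 genes under 1%.

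**Figure D1:**
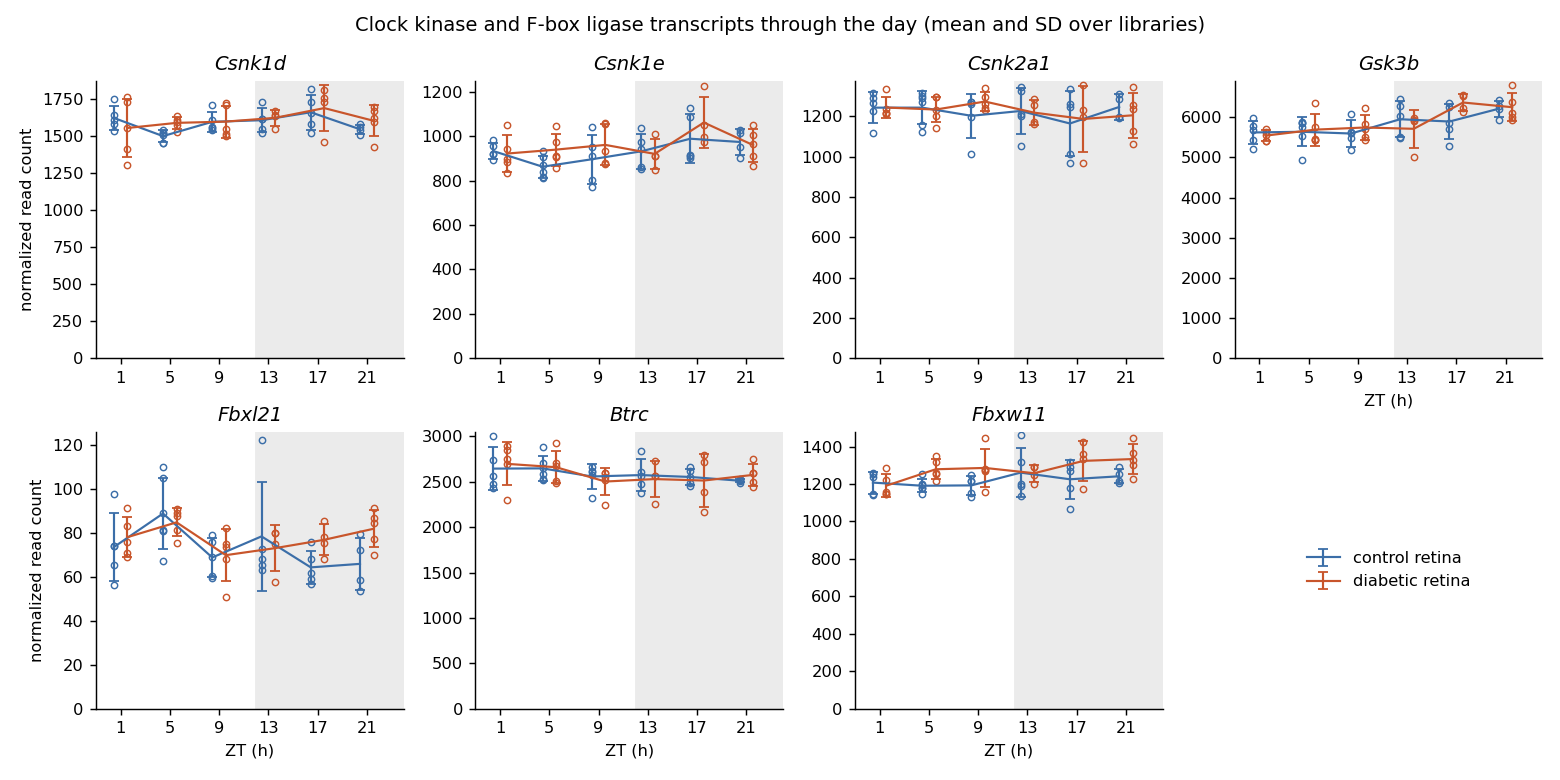
Normalized read counts of the 7 genes (y axis, from 0) against zeitgeber time in h (x axis). Open circles are single libraries, lines join the means with SD bars, blue is control, orange is diabetic, and shading marks lights off. The profiles are nearly flat and the genotypes overlap at most points. Gsk3b lies highest at ZT17 and ZT21 in diabetic retinas, and Fbxl21 has the widest scatter.

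Whether diabetes changed the level of these genes was asked first over all time points together. None of the 7 passed edgeR's quasi-likelihood test at a Benjamini-Hochberg adjusted p under 0.05, against 3.11% of the 18814 genes tested, and DESeq2 also called 0 of them. All 7 differences were small, at a log2 difference of 0.08 or less, and the median over the 7 was 0.02 beside 0.00 over all genes.

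Fbxw11, which binds phosphorylated PER proteins and beta-catenin, came nearest to the threshold. Its normalized read count was 1065.51 at the lowest, 1210.56 at the median and 1459.69 at the highest of 30 control libraries, and 1145.69, 1276.69 and 1447.23 in 28 diabetic libraries. The ranges overlapped widely. The log2 difference, diabetic minus control, was 0.07 ± 0.03 (SE), or 4.98% higher with a 95% interval from 1.39% to 8.70%. The adjusted p from edgeR's quasi-likelihood test was 0.121, at an unadjusted p of 0.00682. Fbxw11 was the 1 of the 7 with an unadjusted p under 0.05, which 15.5% of all genes tested had. Over the alternative settings and the fits without 1 library the adjusted p of Fbxw11 ranged down to 0.0524 and never passed. By time point the log2 difference of Fbxw11 was 0.11 at ZT5, ZT9 and ZT17, 0.10 at ZT21, -0.02 at ZT1 and 0.00 at ZT13, each with an SE near 0.06.

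The paralog Btrc did not share this difference in value: its log2 difference was 0.00 ± 0.03 (SE), with an interval from -3.60% to 3.74%, and its normalized read counts were 2584.98 ± 145.213 (SD, n = 30) in control and 2582.97 ± 195.337 (n = 28) in diabetic retinas. The difference between the paralogs was not tested. The kinases lay close to 0 as well, with log2 differences of 0.05 ± 0.03 (SE) for Csnk1e, 0.02 ± 0.03 for Gsk3b, 0.02 ± 0.03 for Csnk1d and 0.01 ± 0.03 for Csnk2a1. The 95% intervals bound these differences: Gsk3b lay between -2.38% and 5.29%, Csnk1d between -2.32% and 4.94%, Csnk2a1 between -3.43% and 5.01% and Csnk1e between -1.47% and 8.57%. For Fbxl21 the log2 difference was 0.08 ± 0.07, with a wider interval from -3.81% to 15.8%. A missed threshold does not show equal levels, and the intervals give the sizes that the data still allow.

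**Figure D2:**
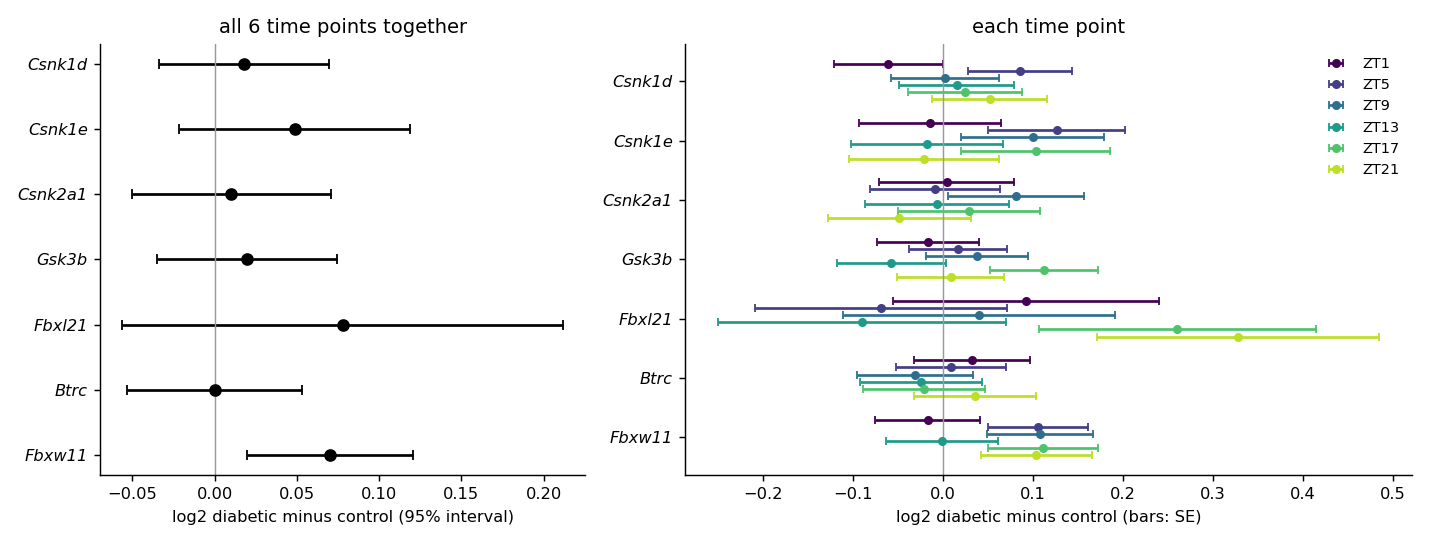
Log2 difference of expression, diabetic minus control, for the 7 genes. The left panel pools all time points (points with 95% intervals), where only the interval of Fbxw11 stays above 0. The right panel shows the 6 time points by colour (bars are SE), where Fbxl21 has the widest bars and its highest values at ZT17 and ZT21.

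At single time points the 7 genes gave 42 differences, of which none passed the adjusted threshold in edgeR or in DESeq2. The share of all genes that did was 0.0106%, 0.0213% and 0.00532% at ZT1, ZT5 and ZT9, and 0.0%, 0.175% and 0.0% at ZT13, ZT17 and ZT21, so the comparison called few genes of any kind. The lowest adjusted p, from edgeR's quasi-likelihood test, was 0.615 for Gsk3b at ZT17.

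Fbxl21, the CRY-directed F-box gene, gave both ends of the range. At ZT21 its normalized read counts were 53.78, 58.65, 72.16 and 79.50 in the 4 control libraries and 69.91, 77.30, 84.43, 86.77 and 91.62 in the 5 diabetic ones. The diabetic retinas lay mostly higher, and the groups overlapped. The log2 difference was 0.33 ± 0.16 (SE), with an unadjusted p of 0.0417 and an adjusted p of 1.00 from edgeR's quasi-likelihood test. This was the 1 difference of the 42 with an unadjusted p under 0.05, beside 4.67% of all genes at ZT21. At ZT17 the log2 difference of Fbxl21 was 0.26 ± 0.15 and at ZT13 it was -0.09 ± 0.16. The ZT13 value includes a control library at 122.65 normalized counts, where the other 4 read 63.32 to 72.93.

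The next question was whether the transcripts follow the day. Rhythm was tested within each genotype with an empirical JTK_CYCLE test, a rank test against 24 h waveforms with a permutation p, and a gene was called with an unadjusted p under 0.05 and its highest library more than 25% above its lowest. In control retinas 0 of the 7 genes were called, against 21.8% of 19086 expressed genes. In diabetic retinas 2 of the 7 were called, Gsk3b and Fbxw11, against 23.9% of 19145, a share near the background. With the p adjusted over all expressed genes, 1 of 7 was called in diabetic retinas (background 10.3%) and 0 of 7 in control (8.25%).

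Gsk3b, the kinase that insulin signalling restrains, had the clearest profile. In diabetic retinas its normalized read counts at ZT1 were 5405, 5417, 5565, 5638 and 5696. At ZT17 they were 6134, 6236, 6540 and 6561, and at ZT21 they were 5938, 6018, 6106, 6381 and 6809. All 9 libraries of ZT17 and ZT21 thus lay above all 5 of ZT1. The 3 time points between held values from 5015 to 6365 and overlapped both sides.

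The JTK_CYCLE permutation p for Gsk3b in diabetic retinas was 0.000353, and 0.00901 after Benjamini-Hochberg adjustment. A fitted 24 h cosine had a relative amplitude of 5.89% ± 1.66 (SE, n = 28) of the mean and peaked at ZT17.9 ± 1.07 h. The highest library was 1.36 times the lowest, while the highest time point mean was 1.15 times the lowest. The change was thus small: the amplitude lay under the median of all expressed genes in diabetic retinas, 7.269%, scarce genes included. Among the genes called rhythmic there, the median was 10.88% and the lower quartile 7.864%, both above Gsk3b. The call was lost where the 25% was asked of the time point means (background 14.2%). Leaving out each diabetic library in turn kept the call in 28 of 28, with permutation p-values from 5.6e-05 to 0.00120, leaving out each time point kept it too, at 0.000196 to 0.0207, and edgeR's cosine test gave an adjusted p of 0.0416. In edgeR's test of the time point with any shape the adjusted p was 0.0530, which did not pass.

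Control retinas had a similar Gsk3b profile that missed the threshold. The group means of the normalized read count were 5621.44 ± 295.518 (SD, n = 5) at ZT1, 5638.57 ± 365.218 (n = 6) at ZT5 and 5595.36 ± 330.714 (n = 5) at ZT9. They were 5950.99 ± 448.196 (n = 5) at ZT13, 5894.09 ± 437.46 (n = 5) at ZT17 and 6212.66 ± 201.965 (n = 4) at ZT21. The 4 libraries of ZT21 (5937.83 to 6417.99) overlapped the highest values of ZT1 and ZT9 and those of the other night points. The relative amplitude was 4.17% ± 1.61 (SE, n = 30), the peak ZT18.1 ± 1.51 h and the permutation p 0.122. The fitted peaks of the genotypes were 0.221 h apart. A call in diabetic and none in control retinas does not show a difference, and the test of the difference in rhythm itself gave an unadjusted p of 0.802 and an adjusted p of 1.00 in edgeR's quasi-likelihood test.

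Other measures moved with the same hours. The summed pigment epithelium markers had group medians in diabetic retinas of 65.4, 33.0 and 114 CPM at the 3 light time points in order, and of 193, 133 and 220 CPM at the 3 dark ones. In control retinas they were 64.9, 72.3 and 171 CPM in the light and 176, 165 and 212 CPM in the dark. Summed markers of cell types within the retina were also higher in the dark in diabetic retinas: the median went from 1310 CPM in the light to 1495 in the dark for bipolar cells, from 568.6 to 642.0 for ganglion cells, from 2626 to 2884 for Muller glia, from 152.7 to 173.4 for endothelium, from 520.5 to 565.9 for amacrine cells and from 15.24 to 16.99 for microglia. Rods went from 39230 to 40480 CPM and cones from 762.9 to 737.7. In control retinas the same medians went from 1400 to 1582, 555.4 to 605.2, 2668 to 2952, 155.8 to 171.9, 542.8 to 572.7, 17.06 to 19.06, 41400 to 41810 and 811.0 to 799.4 CPM, in this order. The deepest group was also diabetic ZT17, with a median of 19780322 counted reads against 13459708 at diabetic ZT1. The part of these measures in the Gsk3b profile was not tested, and night cannot be told apart from dissection under dim red light.

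**Figure D3:**
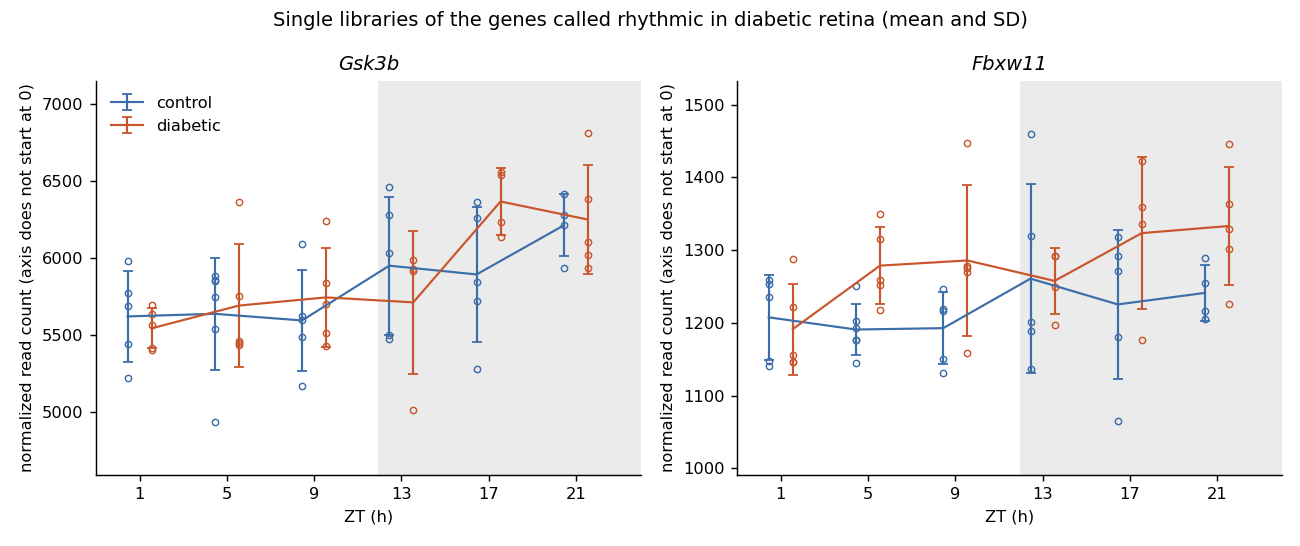
Normalized read counts of Gsk3b (left) and Fbxw11 (right) in single libraries against zeitgeber time, on y axes that do not start at 0, with group means and SD. The diabetic Gsk3b libraries of ZT17 and ZT21 lie above all those of ZT1, and the control profile runs close to it. The Fbxw11 means of the diabetic group are above control at ZT5, ZT9, ZT17 and ZT21, with overlapping libraries.

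Fbxw11 was called in diabetic retinas on a weaker basis. At ZT1 its normalized read counts were 1145.69, 1146.23, 1155.36, 1221.48 and 1287.54, and at ZT21 they were 1225.69, 1301.92, 1329.26, 1363.96 and 1445.40. The later time point was higher with an overlap between the groups. The permutation p was 0.0388, or 0.177 after adjustment, and the highest library was 1.26 times the lowest, just over the required 25%. The relative amplitude was 2.80% ± 1.81 (SE, n = 28) with a peak at ZT16.1 ± 2.39 h. The call was lost in 14 of 28 fits that left out 1 library, with permutation p-values of 0.0545 to 0.0953: these were ZT1 replicates 2, 3, 4 and 5, ZT5 replicate 5, ZT13 replicates 1 and 5, ZT17 replicates 1, 3 and 5, and ZT21 replicates 1, 3, 4 and 5. Other settings also ended the call of Fbxw11: the unadjusted p was 0.316 in edgeR's cosine test, 0.299 with the replicate block and 0.114 in its test of any shape, and the permutation p was 0.444, 0.0681 and 0.156 without ZT1, ZT17 and ZT21. The call was also lost where the 25% was asked of the time point means. In control retinas the permutation p was 0.348, and the test of the difference in rhythm gave an unadjusted p of 0.968 in edgeR.

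The control p-values of 3 other genes lay between 0.05 and 0.09, so that small changes to the data moved them across the threshold. Fbxl21 gave a permutation p of 0.0543, with the largest relative amplitude of the 7, 11.6% ± 5.53 (SE, n = 30), and a fitted peak at ZT5.98 ± 1.87 h. Its normalized read counts ran from 67.26 to 109.996 with a median of 85.28 in the 6 control libraries of ZT5, and were 57.06, 59.23, 61.91, 68.09 and 75.83 at ZT17. The day values were mostly the higher ones, with an overlap. Fbxl21 was called in 10 of 30 fits that left out 1 control library, with permutation p-values of 0.0183 to 0.0489: ZT1 replicates 1, 3 and 4, ZT5 replicate 3, ZT9 replicates 2 and 5, ZT13 replicate 1, ZT17 replicate 5, and ZT21 replicates 1 and 2.

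Csnk1d, at a permutation p of 0.0659 and a relative amplitude of 3.02% ± 1.32 (SE), was called without ZT1 replicate 2 or 6, ZT13 replicate 2 or 4, or ZT17 replicate 4, at 0.0219 to 0.0395. Csnk1e, at 0.0869 and 6.49% ± 2.07, was called without ZT9 replicate 4 or ZT21 replicate 1, at 0.0280 and 0.0459. Without the 3 control libraries that held lens transcripts, Csnk1d (permutation p of 0.0479) and Fbxl21 (0.0150) were both called, which makes 2 of 7 in place of 0, beside 20.2% of all expressed genes (3861 of 19136) in the same libraries. By edgeR's cosine test at an unadjusted p under 0.05, which 26.9% of all genes passed, 3 of 7 were called in control retinas: Csnk1e (0.0187), Fbxl21 (0.0239) and Gsk3b (0.0460). The adjusted p-values of these 3 in edgeR were 0.101, 0.118 and 0.177. Csnk2a1 and Btrc were called in neither genotype, with permutation p-values of 0.933 and 0.456 in control and 0.528 and 0.335 in diabetic retinas.

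The time point means of the 4 remaining genes moved over narrow ranges. Both casein kinase 1 genes had their highest mean at ZT17 in both genotypes: Csnk1e reached 989.548 ± 109.808 normalized counts (SD, n = 5) in control and 1062.54 ± 114.09 (n = 4) in diabetic retinas, from lowest means of 863.303 ± 49.4724 (n = 6) at ZT5 and 921.199 ± 68.3567 (n = 4) at ZT13. Csnk1d reached 1659.04 ± 117.433 (n = 5) and 1687.18 ± 155.742 (n = 4), from 1498.2 ± 39.0244 (n = 6) at ZT5 in control and 1552.98 ± 197.474 (n = 5) at ZT1 in diabetic retinas. Csnk2a1, the catalytic subunit gene of casein kinase 2, had its lowest mean at ZT17 in both, 1164.46 ± 162.247 (n = 5) in control and 1186.92 ± 161.709 (n = 4) in diabetic retinas. Btrc lay between 2510.72 ± 16.7329 (n = 4) at ZT21 and 2646.43 ± 136.43 (n = 6) at ZT5 in control, and between 2501.53 ± 149.591 (n = 5) at ZT9 and 2696.34 ± 235.799 (n = 5) at ZT1 in diabetic retinas. None of these 8 profiles passed the rhythm test.

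The fitted peak times fell into the same phase, light or dark, in both genotypes for 7 of 7 genes. All genes expressed in both did so in 77.2% of cases. Csnk1d, Csnk1e, Gsk3b and Fbxw11 had their fitted peak in the dark, between ZT15.4 and ZT18.5, and Csnk2a1, Fbxl21 and Btrc in the light, between ZT0.175 and ZT6.51. The genotypes do not share animals, but 5 of the 7 genes were called in neither, so most of these peak times belong to profiles that did not pass. Most had wide errors, up to 3.80 h (SE) for Csnk2a1 in control retinas, whose peak was at ZT2.63. In diabetic retinas Fbxl21 peaked at ZT0.175 ± 1.84 h and Btrc at ZT1.83 ± 1.95 h. These peaks lay within their SE of lights on, so their place in the light is not settled. Over all genes, the fitted peak lay in the dark for 47.2% in control and 49.2% in diabetic retinas. The median distance between the genotypes' peaks was 1.85 h for the 7 genes and 2.32 h for all genes.

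**Figure D4:**
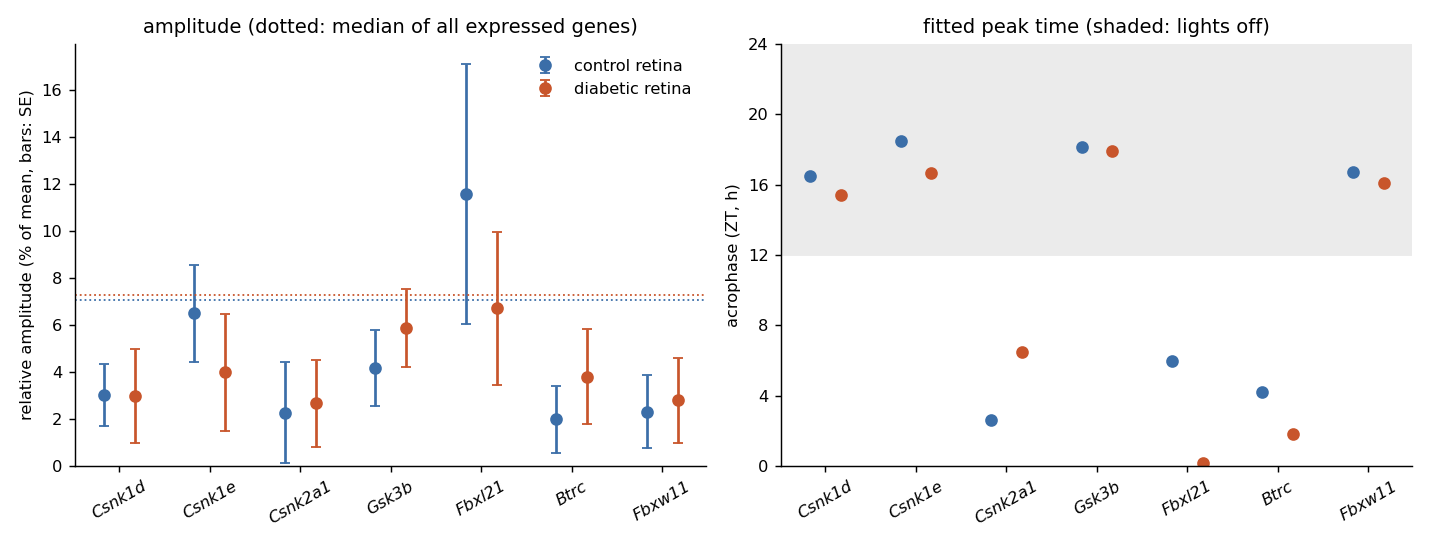
Fitted 24 h cosines of the 7 genes in control (blue) and diabetic (orange) retinas. The left panel gives the relative amplitude in % of the mean with SE bars and dotted lines at the median of all expressed genes, 7.06% and 7.269%, and only Fbxl21 in control has a point above them. The right panel gives the fitted peak in zeitgeber time without error bars, with the dark phase shaded. Each gene has both its points in the same phase, with the diabetic Fbxl21 point at the edge, at ZT0.175 ± 1.84 h (SE).

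No difference in rhythm between the genotypes passed for any of the 7 genes, nor for any of the 18814 genes tested with edgeR's quasi-likelihood test (background 0.0%, while 3.48% had an unadjusted p under 0.05, and DESeq2 also called 0). The unadjusted p was lowest for Fbxl21, at 0.112, where the fitted peak lay 5.80 h earlier in diabetic than in control retinas on errors of 1.87 and 1.84 h (SE). In the other 6 genes it lay between 0.549 and 0.968.

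Among the 12 group means of log2 CPM, the 6 pairs of the 4 genes with dark-phase peaks had Pearson correlations from 0.38 to 0.77. These were 0.77 between Csnk1e and Gsk3b, 0.72 between Gsk3b and Fbxw11, 0.71 between Csnk1d and Csnk1e, 0.66 between Csnk1e and Fbxw11, 0.48 between Csnk1d and Fbxw11 and 0.38 between Csnk1d and Gsk3b. The lowest of all 21 pairs was -0.66, between Csnk1d and Csnk2a1. These are descriptions over 12 means that share their libraries and scaling, and the peak times come from the same libraries. Among 14118 genes searched, the profile closest to that of Gsk3b was Sod2 (r = 0.95), the mitochondrial superoxide dismutase, followed by Mid1ip1 (0.95). Fxr2 (0.96) was close to Csnk1e. The nearest were Evl (0.92) and Sgms1 (0.89) for Csnk1d, and Phf10 (0.93) and Cdadc1 (0.93) for Csnk2a1. For the ligases they were B3galt5 (0.94) and Stk39 (0.93) for Fbxw11, Gria3 (0.90) and Efhc2 (0.90) for Fbxl21, and Vcl (0.92) and the locus Mir5128 (0.92) for Btrc. With so many genes searched, high values arise readily.

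The other genes of the same pathway were described by counts. Of 18 other kinases and phosphatases that act on clock proteins, 1 rose in diabetic retinas over all time points, beside 1.66% of all genes tested: Ppp1cc, a catalytic subunit of protein phosphatase 1, which removes phosphates from PER proteins, by 0.09 ± 0.02 (SE) on the log2 scale with an adjusted p of 0.0113 in edgeR's quasi-likelihood test. None fell, and the list's median was 0.00 as over all genes. In rhythm 1 of 18 was called in control retinas, the CRY2 kinase gene Dyrk1a (permutation p of 0.0292, relative amplitude 3.319% ± 1.501), and 0 of 18 in diabetic ones, beside 21.8% and 23.9% of all expressed genes.

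Of 13 other ubiquitin ligase genes and deubiquitinases, none passed between genotypes in edgeR, beside 3.11% of all genes tested. An unadjusted p under 0.05 was found in 2 of the 13, beside 15.5% of all genes, and the list median was 0.01. The nearest was the deubiquitinase gene Usp7 with a log2 difference of 0.06 ± 0.02 and an adjusted p of 0.0628 in edgeR. In rhythm 4 of 13 were called in control retinas and 3 of 13 in diabetic ones, beside 21.8% and 23.9% of all expressed genes, none after adjustment, and 2 of them in both. Siah2, a ring finger ligase, peaked at ZT19.4 ± 1.10 h in control (relative amplitude 8.95% ± 2.61) and at ZT15.2 ± 0.938 h in diabetic retinas (10.55% ± 2.696), and its test of the difference gave an unadjusted p of 0.0366 and an adjusted p of 1.00 in edgeR. Usp2, a deubiquitinase gene under clock control, peaked at ZT12.9 ± 1.40 h and ZT12.4 ± 1.39 h with amplitudes of 11.7% ± 4.29 and 13.1% ± 4.79. Cul4a, a cullin scaffold of ubiquitin ligases, was called in control retinas, and the test of its difference in rhythm gave an unadjusted p of 0.319 in edgeR.

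Of the 10 substrates, 1 rose in diabetic retinas, beside the same 1.66% of all genes: Cry2, a repressor of the clock loop, by 0.11 ± 0.03 (SE) on the log2 scale with an adjusted p of 0.0242 in edgeR's quasi-likelihood test. Cry1 (0.12 ± 0.04, adjusted p of 0.0800) and Arntl (0.09 ± 0.03, adjusted p of 0.0892) did not pass in edgeR, and the list median was 0.03. In rhythm 2 of the 10 were called in control retinas, Per2 and Arntl, and 1 of 10 in diabetic ones, Per2, beside 21.8% and 23.9% of all expressed genes. Per2, a target of casein kinase 1, peaked at ZT13.8 ± 1.53 h with a relative amplitude of 11.5% ± 4.47 in control and at ZT14.6 ± 0.943 h with 16.38% ± 4.203 in diabetic retinas. Arntl, which encodes the activator BMAL1, had a permutation p of 0.0186 in control and 0.111 in diabetic retinas, and an unadjusted p of 0.582 for the difference in rhythm in edgeR. The 10 substrates had median relative amplitudes of 5.91% (control) and 4.68% (diabetic), beside 3.02% and 3.80% for the 7 genes and 7.06% and 7.269% for all expressed genes. The 3 pathway lists gave no call between genotypes at any single time point.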

How the data were processed

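Reads of 58 retinal libraries had been aligned with STAR (version 2.7.4a) to the GRCm38.p5 genome, annotated by Gencode M15, and counted with HTSeq (version 0.11.1), per the submitters' processing notes and the methods of the study, and the authors deposited the raw counts of each gene symbol, to which no scaling or filter had been applied. The strand setting of the counting is not given in the sources used here. On the opposite strand, antisense genes overlap exons of Csnk1d and Csnk1e and a processed pseudogene overlaps those of Btrc, all at low counts. The columns were assigned to genotype, time point and replicate by their titles. Each of 113 replicate pairs differed by more than sampling noise, so all libraries were kept as separate replicates.

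The 7 genes and the other lists were chosen with earlier results of these data known. Differences between genotypes were tested with edgeR (version 4.0.16) in R 4.3.3, by a quasi-likelihood F test with TMM factors, filterByExpr and Benjamini-Hochberg adjustment over 18814 genes, with 1 group per genotype over all time points and 1 fit of 12 groups for single time points. The difference in rhythm was tested as genotype by cosine and sine terms, in place of the package of the study. Rhythm was tested by a rewritten empirical JTK_CYCLE (30 waveforms, period of 24 h, 1000000 shuffled series) on counts divided by DESeq2 (version 1.42.0) size factors, in genes with a median above 4 in the genotype. Peak times and amplitudes came from a least squares cosine. Per-kb levels used the summed exon length in Gencode M21, and shared 50-base words were counted in its transcripts. The tests were checked on simulated counts drawn independently for each library. That check holds no effect shared by replicate number and does not cover one.

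All 7 genes are named, with those of the lists that were called in a comparison (up to 3 by smallest p) or otherwise up to 2 by smallest p, and the 2 genes whose 12 group means correlate best. Alternatives were DESeq2, other factors and filters, a replicate block, covariates, other rhythm tests, and each library or time point left out. Leaving out the 3 libraries with lens markers above 100 CPM was chosen after seeing the data. Depth was 7773117 to 22147398 reads, and replicate numbers come from the titles. The labels do not say that replicates are separate animals, whereas the study calls them biological replicates. P-values measure the spread between these samples, which may be technical. Some genes of the lists are not described here.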

Additional observations from a re-analysis of the deposited data

Results flagged for a closer look

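In 7 of 84 groups (7 genes in 12 groups of 4 to 6 libraries) the highest or lowest library stood far from the rest by Dixon's criterion, which chance meets in about 1 of 20 groups. Gsk3b was lowest at 4939 normalized counts in control ZT5 replicate 5 (next library 5543) and at 5015 in diabetic ZT13 replicate 5 (next 5915). Without either library the diabetic rhythm call of Gsk3b was kept and the control one still missed. Fbxl21 was highest at 122.7 in control ZT13 replicate 1 (next 72.93), and without this library Fbxl21 was called rhythmic in control retinas with a permutation p of 0.0248. Csnk2a1 was lowest at 1013 in control ZT9 replicate 4 (next 1198) and highest at 1334 in diabetic ZT1 replicate 2 (next 1237). Btrc was lowest at 2325 in control ZT9 replicate 1 (next 2575) and at 2241 in diabetic ZT9 replicate 3 (next 2523). No cause was tested for these libraries.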

How the results depend on the processing

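No alternative and no left-out library brought any of the 7 genes past the threshold between genotypes, over all time points, at a single one or in the difference in rhythm. The count over all genes at 586 moved to 387 without the filter, 901 with time point as a covariate, and 336, 278, 252 and 233 without ZT1, ZT5, ZT17 and ZT21. At ZT1 the count of 2 became 1 without the filter, 6 with DESeq2, 4 without the 3 lens libraries and 0 to 4 without 1 library. At ZT5 the 4 became 8 with the replicate block, 32 with DESeq2 and 2 to 8 without 1 library. At ZT9 the 1 became 3 without the filter, 3 with the block, 4 with DESeq2, 0 without the lens libraries and 0 to 2 without 1 library. At ZT13 the 0 became 1 with DESeq2 and 0 to 1 without 1 library. At ZT17 the 33 became 62 with the block and 90 with DESeq2, and 3 without diabetic ZT17 replicate 5 to 93 without diabetic ZT17 replicate 1. At ZT21 the 0 became 1 without the filter, 13 with the block, 8 with DESeq2 and 0 to 14 without 1 library. For the difference in rhythm the 0 became 3 without the filter, 10 with the block and 0 to 9 without 1 library. All rhythm calls in control, 4169, fell to 1574 with adjusted p, 2529 with the ratio of time point means and 2691 without ZT17, and those in diabetic retinas, 4567, to 1967 and 2712 under the first 2 of these.

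Of the 7 genes, 0 were rhythmic in control retinas, and 3 by edgeR's cosine test (26.5% of all expressed genes), 1 by its test of any shape (21.7%), 2 with the replicate block (30.1%), 2 each without ZT1 (21.8%), ZT9 (21.7%) or ZT13 (23.0%), 1 without ZT21 (18.8%), 2 without the lens libraries (20.2%) and 0 to 2 without 1 library. The 2 in diabetic retinas became 1 with adjusted p (10.3% of all expressed genes), 0 with the ratio of time point means (14.2%), 1 by edgeR's cosine test (27.1%) or that of any shape (22.3%), 1 without ZT17 (16.3%) or ZT21 (16.4%), and 1 to 2 without 1 library, with Fbxw11 lost and Gsk3b kept wherever 1 was left. With 7 genes, these counts are not read as results about them. Without ZT1 (21.3%) the 2 were Gsk3b and Fbxl21 (permutation p of 0.0244), and with the replicate block (28.6%) they were Gsk3b and Btrc (p of 0.0366 in edgeR). The difference between genotypes turned sign where it was near 0. Csnk2a1 went to -0.00503 without ZT9 and Gsk3b to -0.000259 without ZT17. Btrc went to -0.00119 with DESeq2 size factors, -0.00191 without the filter, -0.00598 with the block, -0.00113 with DESeq2, -0.000132 with log10 total count as a covariate, -0.00853, -0.000621, -0.00174 and -0.00788 without ZT1, ZT5, ZT17 and ZT21, -0.00287 without the lens libraries, and -0.00837 to 0.00813 without 1 library. The cause of these moves was not tested. The replicate numbers carry no stated litter, batch or day. Samples with the same number deviated together more often than others: 17 of 26 such pairs had correlated deviations above 0.1 (median 0.126, from -0.214 to 0.588), against 20 of 114 pairs with other numbers (median -0.0354). As nothing states what the numbers stand for, they were not taken as a pairing, and the main tests treat the libraries as independent. Their p-values do not account for spread that samples with the same number share. The block counts above are given beside the others as a hint from the data. The SE of a log2 difference at a single time point ran from 0.05 to 0.16, the highest in Fbxl21, which also had the fewest reads. The part of depth in it was not tested.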
